A study of Mus musculus with 216 samples.

Results

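The daily rhythm of transcript levels in the adrenal gland of young mice was followed in 12 RNA-seq libraries, chosen from the 216 libraries of the series by their labels, tissue adrenal and age group young. The mice were males of the C57B6/J-NIA strain aged 6 months, with no transgene or drug named. The 12 libraries cover circadian times 18 to 62 h in steps of 4 h, with 1 library per time, so that each of 6 times of day was seen in 2 successive cycles. Each library pools 2 samples, made from total RNA with an Illumina poly(A) kit. The 12 kidney and 12 heart libraries of the same age, strain, sex and times were used for comparison. The light schedule is not given in the sources used here, and circadian times from 0 to 12 h are called subjective day and those from 12 to 24 h subjective night. No time point was repeated within a tissue and age group, so all p-values measure the spread of single libraries around a fitted 24 h cosine, which may in part be technical.

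The mammalian clock is a transcriptional feedback loop. The activators ARNTL (also called BMAL1) and CLOCK or NPAS2 switch on the Per, Cry and Rev-erb genes, whose products in turn shut off the activators or their genes, and the PAR bZIP factors DBP, TEF and HLF carry the rhythm on to output genes. The adrenal gland is known for its daily rhythm of glucocorticoid release: its cortex makes steroids from cholesterol under the control of ACTH and of its own clock, and its medulla makes catecholamines.

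The libraries held 14771602 to 20091025 counts each. The label adrenal gland was checked against marker genes, given as summed counts scaled to the library total (CPM), and every marker of the cortex, medulla, white adipose, lymphocyte, liver and skeletal muscle lists had counts. The 8 cortex markers, among them Star, Cyp11a1 and Cyp21a1, summed to 11496 to 17715 CPM in 11 libraries but to 858 CPM in the library at 54. In that library Star, the protein that carries cholesterol into mitochondria, stood at 132 CPM against 3115 to 5420 CPM in the others, the 7 medulla markers at 104 CPM against 2707 to 6432 CPM, and the 8 white adipose markers at 16067 CPM against 4651 to 9037 CPM. The library at 30, which has the same time of day as that at 54, stood apart in another way. Its 8 lymphocyte markers summed to 4133 CPM, against 801 CPM at 54 and 108 to 441 CPM in the other 10 libraries, and its cortex and medulla sums were the lowest outside 54. Liver markers reached 8388 CPM at 26, 4427 CPM at 58 and 1567 CPM at 54, against 21.3 to 410 CPM elsewhere, and skeletal muscle markers lay between 1217 and 2917 CPM at 18, 22, 34, 38 and 46 and between 12.3 and 187 CPM at the other times. In bulk tissue, fewer cells of a type and less RNA per cell cannot be told apart. Results are therefore given for the 12 libraries and, where this changes them, without 54, without 30 and without both, the last 2 chosen after seeing the data.

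**Figure D1:**
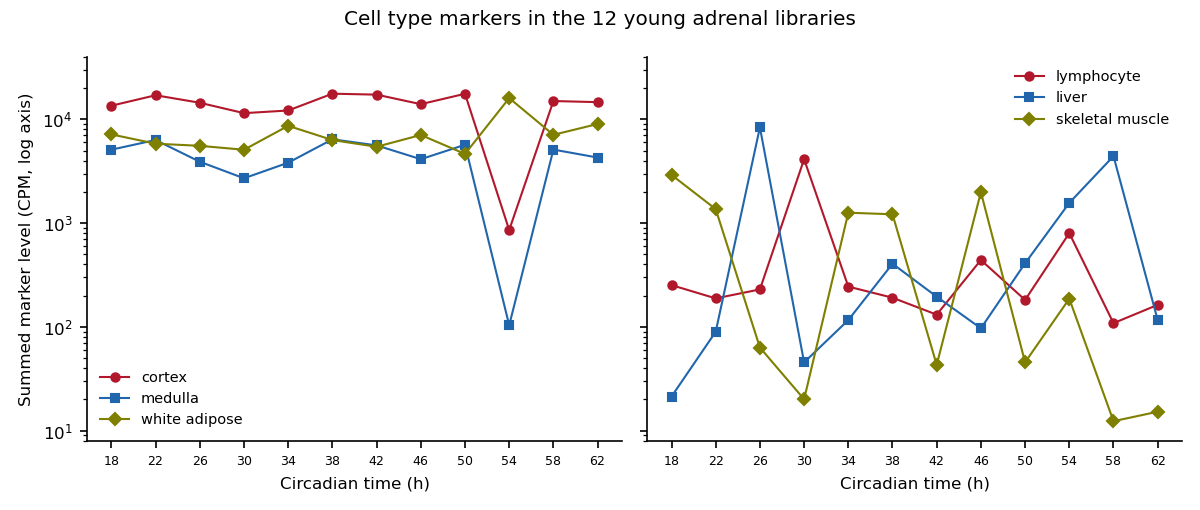
Summed levels (CPM, log axis) of 6 cell type marker lists in each of the 12 young adrenal libraries, by circadian time in h; each point is 1 library. Cortex markers are at 858 CPM at 54 and at 11496 CPM or more elsewhere, while lymphocyte markers reach 4133 CPM at 30 and liver markers 8388 CPM at 26.

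Promoter sequences are shown for 4 clock genes and 1 heat shock gene described below, as examples of windows that hold 2 or more matches of motifs bound by clock or heat shock factors. They run from 250 bases before to 50 bases after the gene's start, 5′ to 3′ on the gene's own strand, and come from RefSeq on GRCm38.p6. Capitals mark every match, on either strand, of the motif named. Ciart (chr3:95882179-95882478, minus strand), a repressor of the activators, has 3 copies of the E-box CACGTG, the letters bound by ARNTL with CLOCK or NPAS2. Cry1 (chr10:85185005-85185304, minus strand) has 1 E-box and 1 E'-box, CACGTT, read on the other strand as AACGTG. Per3 (chr4:151044616-151044915, minus strand) has 2 copies of the D-box TTATGTAA, bound by DBP, TEF and HLF. Arntl (chr7:113207261-113207560, plus strand) has 2 matches of AGTAGGTNA, a form of the element bound by REV-ERB and ROR receptors. Hspe1 (chr1:55087898-55088197, plus strand), which lies head to head with Hspd1, has 2 overlapping matches of a heat shock element, searched as 3 units alternating between GAA and TTC with 2 free bases between units.
Ciart: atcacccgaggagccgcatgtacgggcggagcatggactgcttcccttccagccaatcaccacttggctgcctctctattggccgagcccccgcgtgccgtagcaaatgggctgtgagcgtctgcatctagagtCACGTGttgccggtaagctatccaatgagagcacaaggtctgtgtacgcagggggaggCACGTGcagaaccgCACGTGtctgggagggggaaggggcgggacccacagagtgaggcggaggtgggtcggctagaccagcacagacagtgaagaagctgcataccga
Cry1: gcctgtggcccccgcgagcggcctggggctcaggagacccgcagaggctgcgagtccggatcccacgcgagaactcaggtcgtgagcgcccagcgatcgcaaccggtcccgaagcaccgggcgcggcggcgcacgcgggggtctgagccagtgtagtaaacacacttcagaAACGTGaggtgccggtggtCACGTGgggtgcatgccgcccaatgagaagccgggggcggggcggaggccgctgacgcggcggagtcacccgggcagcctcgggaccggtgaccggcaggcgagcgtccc
Per3: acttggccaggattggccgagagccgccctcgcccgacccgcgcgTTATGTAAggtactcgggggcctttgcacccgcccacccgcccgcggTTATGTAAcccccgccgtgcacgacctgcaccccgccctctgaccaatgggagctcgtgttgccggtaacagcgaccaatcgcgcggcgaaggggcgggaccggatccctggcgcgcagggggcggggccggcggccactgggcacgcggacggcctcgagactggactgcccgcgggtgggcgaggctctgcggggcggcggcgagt
Arntl: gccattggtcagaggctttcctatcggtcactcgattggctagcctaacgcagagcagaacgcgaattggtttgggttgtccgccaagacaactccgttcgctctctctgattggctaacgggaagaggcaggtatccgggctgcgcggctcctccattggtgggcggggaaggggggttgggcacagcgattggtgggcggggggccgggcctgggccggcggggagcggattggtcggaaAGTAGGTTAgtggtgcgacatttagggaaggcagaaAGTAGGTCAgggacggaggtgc
Hspe1: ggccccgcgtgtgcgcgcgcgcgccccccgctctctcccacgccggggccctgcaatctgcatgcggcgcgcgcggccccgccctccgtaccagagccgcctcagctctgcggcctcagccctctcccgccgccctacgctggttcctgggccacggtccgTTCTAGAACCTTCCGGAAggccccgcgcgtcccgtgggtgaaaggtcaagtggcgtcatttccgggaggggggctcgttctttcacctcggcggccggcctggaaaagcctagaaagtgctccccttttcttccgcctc

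A promoter window was at hand for 11001 of the 14911 genes tested. Of these genes 11.4% had an E-box, 6.34% an E'-box, 0.682% the D-box, 0.473% the REV-ERB and ROR element, 0.573% a heat shock element, 3.45% the cAMP element TGACGTCA and 0.0182% a glucocorticoid element (GAACA and TGTTC with 3 free bases between), each counted on both strands and in any window of the gene. Of the 16 core clock genes with a window, 5 had an E-box (Per1, Cry1, Ciart, Tef and Bhlhe41), 3 an E'-box (Cry1, Cry2 and Nr1d1), 2 the REV-ERB and ROR element (Arntl and Nfil3), 1 the D-box (Per3) and 1 the cAMP element (Hlf). Of 16 heat shock genes with a window, 4 had a heat shock element (Hsph1, Hspd1, Hspe1 and Chordc1). Of 15 genes of the glucocorticoid response list with a window, 1 (Sgk1) had the glucocorticoid element. A match is a description of letters, not of binding.

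In the 12 libraries, 7 of 14911 genes tested (0.0469%) fitted a 24 h cosine at an adjusted p under 0.05 (edgeR's quasi-likelihood test, Benjamini-Hochberg adjustment), and 2066 (13.9%) had an unadjusted p under 0.05. The 7 were Cry1, Nr1d1, Per3, Tef and Npas2 of the core clock, Gstt2, a glutathione transferase, and Maco1, a transmembrane protein. DESeq2's likelihood ratio test called 530 genes on the same libraries and 1059 without 54. Below, a gene is said to be called where edgeR called it, unless DESeq2 is named. Without the library at 54 the test called 40 of 15530 genes (0.258%), with all 7 among them. Without both 30 and 54 it called 110 of 15638 (0.703%), which held all 7 and 39 of those 40. Without 30 alone it called 8 of 14996 (0.0533%). Other single libraries also decided this count: it was 0 without 26, 42, 46 or 58, 1 without 18, 22, 34 or 38, and 4 without 50 or 62. Under the same test in 12 libraries each, 1999 of 15008 genes (13.3%) were called in young kidney and 929 of 12928 (7.19%) in young heart, and the differences between these counts were not tested.

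Core clock genes made up 5 of the 7 calls. Of 19 tested from a list of 20, 5 were called in the 12 libraries, 13 without 54, 4 without 30 and 16 of 20 tested without both, against the backgrounds just given, and 17 of 19 had an unadjusted p under 0.05 in the 12 libraries. Their median log2 amplitude, which is the fitted distance from the mean level to the peak, was 0.98 in the 12 libraries and 0.93 without both, against 0.15 and 0.12 over all genes tested.

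The activators peaked late in subjective night. Arntl, the activator without which the loop stops, had 97.4 CPM at 42, 93.9 CPM at 22 and 84.7 CPM at 46, and 4.98 CPM at 34 and 5.23 CPM at 58. The 3 highest libraries are those at 42, 22 and 46, followed by 62.5 CPM at 50 and 58.5 CPM at 18, and the lowest 2 are those at time of day 10 h. The log2 amplitude was 1.85 ± 0.26 (SE, 12 libraries), a 13.0-fold swing from trough to peak, and the fitted peak lay at 21.7 h. The adjusted p was 0.0978 in the 12 libraries, 0.0355 without 54, 0.104 without 30 and 0.0333 without both. Npas2, which can stand in for CLOCK, swung more widely, with a log2 amplitude of 2.32 ± 0.25 (SE, 12 libraries). It ranged from 0.898 CPM at 58 and 1.49 CPM at 34 to 32.2 CPM at 22, with a median of 11.8 CPM. Its adjusted p was 0.0445, and 0.0539 without 30. Clock itself moved little, between 55.6 CPM at 34 and 93.5 CPM at 22. With a log2 amplitude of 0.31 it was not called in the 12 libraries (adjusted p 0.323) but was called without 54 (0.0355).

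Nr1d1 (REV-ERB alpha), which represses Arntl, peaked at 7.43 h, the earliest of the called clock genes. It stood at 22.1 and 23.4 CPM at 18 and 42 and at 301 and 241 CPM at 34 and 58, a log2 amplitude of 1.70 ± 0.18 (SE, 12 libraries) with an adjusted p of 0.0170 in the 12 libraries and between 0.000247 and 0.00818 in the other sets. Nr1d1 overlaps Thra on the opposite strand, and since use of strand in the counting is not given in the sources used here, reads of the 2 genes cannot be told apart. Its paralog Nr1d2 had a fitted peak at 9.81 h and was called without 54 (adjusted p 0.00284) and without both (0.00181), but not in the 12 libraries (0.0978). Rora lay between 46.7 CPM at 54 and 99.5 CPM at 50 with an unadjusted p of 0.508, and Rorb was under the count filter in the 12 libraries.

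The PAR bZIP factors and the period genes followed, some with fitted peaks in subjective day and others in subjective night. Dbp, a PAR bZIP factor that drives output genes through D-boxes, had 20.1 and 24.6 CPM at 46 and 22 and 301 and 329 CPM at 34 and 58. The library at 54 held 32.3 CPM of Dbp, whereas that at 30 held 148 CPM, and in kidney and heart the libraries at 54 held 104 and 116 CPM. Without 54 the log2 amplitude of Dbp was 1.94, its peak 8.90 h and its adjusted p 0.000452, against 1.64, 9.61 h and 0.117 in the 12 libraries. Ciart, whose promoter carries the 3 E-boxes, rested at 1.06 to 2.12 CPM at times of day 18, 22 and 2 h and at 54, and reached 16.6 and 24.2 CPM at 34 and 58. Its adjusted p was 0.0561 in the 12 libraries and 0.00135 without 54, where its fitted peak lay at 10.5 h. Bhlhe41 (DEC2), another E-box gene that represses the activators, was at its highest at 34 and 58 too, with 88.9 and 65.5 CPM, and was called without 54 (adjusted p 0.0430). Its relative Bhlhe40 had an unadjusted p of 0.495.

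Per1, Per3 and Per2 peaked in that order, and Cry1 last. Per1 was highest at 58 (197 CPM) and 30 (146 CPM) and lowest at 54 (32.6 CPM), and was called without 54 (peak 8.73 h, adjusted p 0.00744) but not in the 12 libraries (0.334). Per3 ranged from 26.3 CPM at 54 and 30.2 CPM at 26 to 131 and 150 CPM at 34 and 58. Its log2 amplitude was 1.19 ± 0.14 (SE, 12 libraries), its peak 12.7 h and its adjusted p 0.0170, or 7.28e-05 without 54. Tef, the PAR bZIP factor with the smallest error, moved alongside, from 91.6 CPM at 54 to 395 CPM at 58, with an amplitude of 0.98 ± 0.12, a peak at 12.5 h and an adjusted p of 0.0170. Per2 was highest at 38 (207 CPM) and 58 (206 CPM) and fitted a peak at 13.7 h without 54 (adjusted p 0.00135). At 54 it held 10.2 CPM, against 44.7 CPM at 26 for its next lowest value, and its adjusted p in the 12 libraries was 0.250.

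Cry1, the late repressor that closes the loop, had the smallest p of all genes in the 12 libraries (adjusted p 0.0110). It held 41.3 to 51.7 CPM at 18, 22, 38, 42 and 46 and 10.5 to 17.7 CPM at 26, 30, 34, 50, 54 and 58, with 31.9 CPM at 62. Its 6 highest libraries were those at times of day 14, 18 and 22 h. Its log2 amplitude of 1.04 ± 0.09 (SE, 12 libraries) and its peak at 18.4 h were 1.11 and 18.3 h without both libraries. Cry2 had a log2 amplitude of 0.26 and an unadjusted p of 0.00985, and was not called by edgeR in any of the 4 sets of libraries, while DESeq2 gave an adjusted p of 0.0472 on the 12 libraries and 0.0286 without 54. Nfil3, which opposes the PAR bZIP factors at D-boxes, had its fitted peak at 21.9 h, near Arntl with which it shares the REV-ERB and ROR element. edgeR called it only without both (adjusted p 0.0478), as it did Hlf (0.00389), while DESeq2 called both genes on the 12 libraries (adjusted p 0.00153 and 0.0477).

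**Figure D2:**
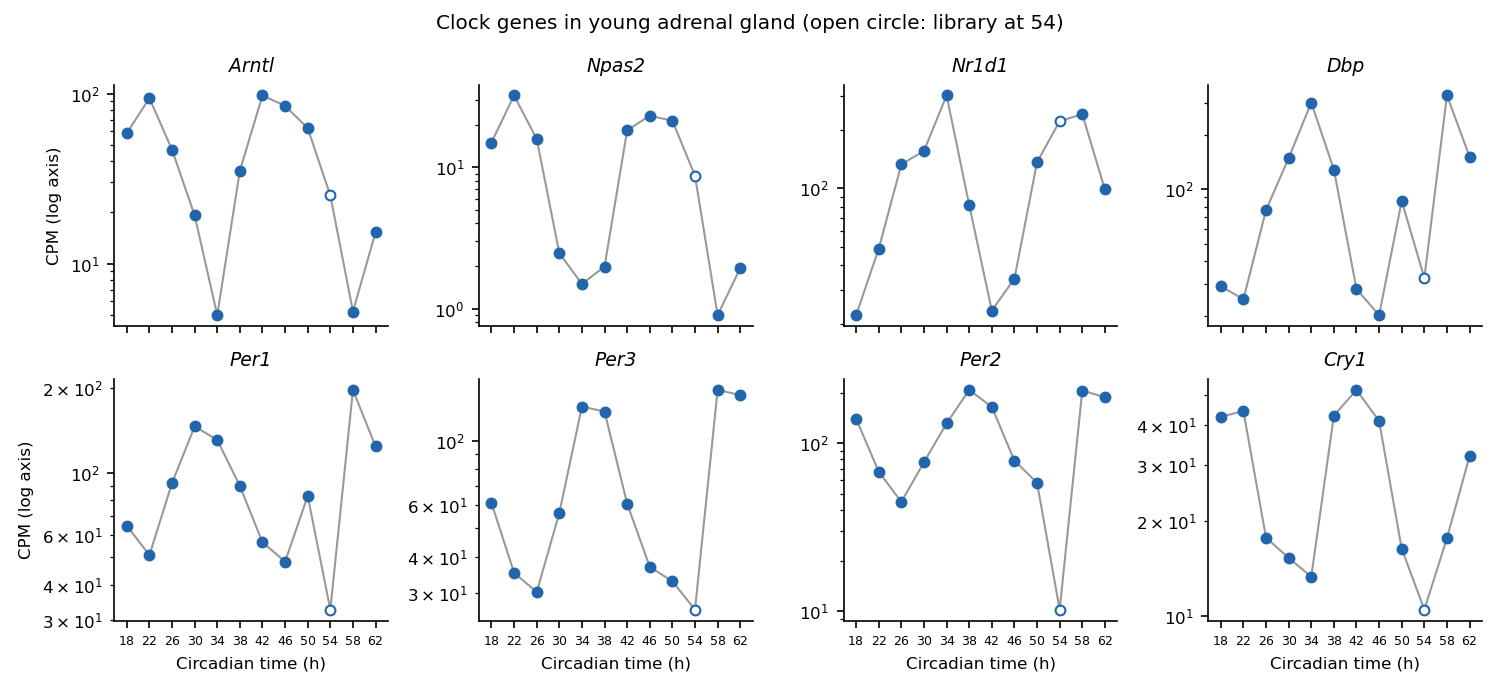
Levels of 8 clock genes (CPM, log axis) in each of the 12 young adrenal libraries by circadian time in h; points are single libraries and the open circle marks the library at 54. Arntl and Npas2 are high around 22 and 46, Nr1d1 and Dbp around 34 and 58, and Cry1 around 18 and 42, while Dbp, Per1 and Per2 at 54 lie far from their values at 30.

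Known outputs of the clock had smaller fitted amplitudes, with a median of 0.52 on the log2 scale in the 12 libraries. The list was chosen with earlier results of these data known. Of its 16 genes, 0 were called by edgeR in the 12 libraries, 8 by DESeq2, and 8 (50%) had an unadjusted p under 0.05. Over all genes tested, edgeR called 0.0469%, DESeq2 called 530 of 14911, and 13.9% had an unadjusted p under 0.05. Without 54, edgeR called 6: Por, Tspan4, Lonrf3, Coq10b, Leo1 and Cdkn1a. Without both it called 9, with Wee1, Usp2 and Fmo2 added. Over all genes tested, edgeR called 0.258% without 54 and 0.703% without both. Por, the reductase that feeds electrons to microsomal P450 enzymes, was the 1 called member of the steroid synthesis list as well. It ranged from 234 CPM at 50 to 547 CPM at 58, and its adjusted p was 0.137 in the 12 libraries and 0.0477 without 54, where its peak lay at 12.5 h. Tspan4, a tetraspanin with an E-box, ranged from 51.9 to 117 CPM with a fitted peak at 12.1 h (adjusted p 0.0561, or 0.00195 without 54). Cdkn1a, which encodes the cell cycle inhibitor p21, was lowest at 58 and 34 (20.9 and 28.3 CPM) and high at 46 (90.6 CPM), with 106 CPM at 54. Leaving out 54 moved its fitted peak from 23.4 to 21.9 h and its adjusted p from 0.365 to 0.00667. Leo1, of the PAF1 transcription elongation complex, ranged from 20.4 CPM at 58 to 45.3 CPM at 22 and a little more at 46, with a fitted peak at 21.8 h (adjusted p 0.0611, or 0.00397 without 54).

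Called genes spread over the cycle in the 10 libraries left without 30 and 54. Of the 110 called there, 16 were core clock and 9 output genes, and of all 110, 35 peaked at 8 to 12 h, 21 at 12 to 16 h, 6 at 16 to 20 h, 28 at 20 to 24 h, 15 at 0 to 4 h and 5 at 4 to 8 h. In the same order these are 31.8%, 19.1%, 5.45%, 25.5%, 13.6% and 4.55% of the called genes. Of all genes tested, 13.9%, 15.4%, 17.9%, 17.5%, 16.3% and 19% had fitted peaks in these windows. In these 10 libraries time of day 6 h has no library. The following were picked from the 110 for small p or known function after their values were seen. Dtx4, a ubiquitin ligase of the Notch pathway, was low at 34, 38, 58 and 62 (20.4 to 24.6 CPM) and high at 22, 46 and 50 (62.2 to 68.5 CPM), with a peak at 23.5 h and an adjusted p of 7.69e-05. At 54 it held 87.4 CPM, its highest value. Gstt2 ranged from 27.2 CPM at 46 to 62.7 CPM at 58 and peaked at 9.83 h, and Maco1 ranged from 63.6 CPM at 26 to 116 CPM at 62. Scd2, which makes monounsaturated fatty acids, peaked at 22.4 h with an adjusted p of 0.0475, from 704 CPM at 62 to 1519 CPM at 22 within these 10 libraries. Prkar2b, a regulatory subunit of the cAMP-dependent kinase that carries the ACTH signal, peaked at 14.2 h with a log2 amplitude of 0.47 and an adjusted p of 0.0352. It is not a member of the list of ACTH receptor and cAMP signalling genes, of which edgeR called 0 of 16 in these 10 libraries. Of those 16, 6 (37.5%) had an unadjusted p under 0.05, against 17.2% of all genes. In the 12 libraries edgeR called 0 of 15 of that list. Rbm3, a cold-inducible RNA-binding protein, peaked at 10.7 h (adjusted p 0.0215). At 30, outside this fit, it held 237 CPM against 73.9 to 114 CPM in all other libraries.

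**Figure D3:**
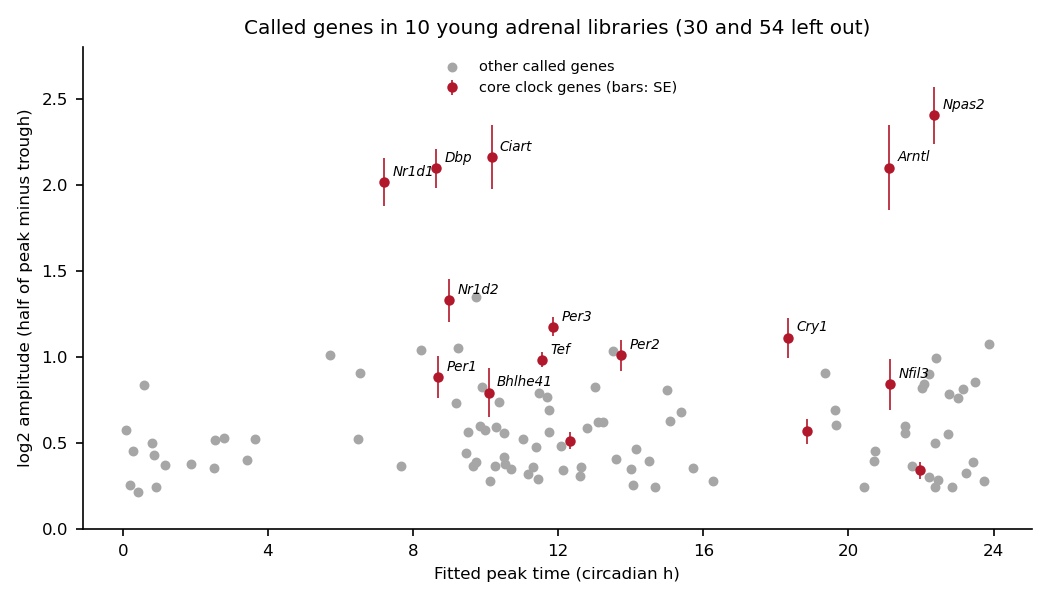
Fitted peak time (circadian h) and log2 amplitude of the 110 genes called in the 10 young adrenal libraries without 30 and 54; red points are core clock genes with SE bars, grey points the other called genes. Npas2, Arntl, Ciart, Dbp and Nr1d1 have the largest amplitudes, between 2.02 and 2.40.

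By the rule for naming genes, the 4 smallest p-values of each peak window were taken from genes with an unadjusted p under 0.05, because fewer than 50 passed the adjusted threshold. Between 0 and 4 h these were Isg15, Sema4c, Tnfaip2 and Klhl3. Isg15, an interferon-induced ubiquitin-like protein, ranged from 4.40 CPM at 38 to 12.3 CPM at 50 and had an adjusted p of 0.0877, or 0.0499 without 54. Between 4 and 8 h they were Nr1d1, Apold1, Syne3 and Cited2, and between 8 and 12 h Gstt2, Ciart, Trib1 and N4bp2l1. Apold1, an endothelial early response gene, ranged from 3.19 CPM at 42 to 17.7 CPM at 54, with an adjusted p of 0.0572. Between 12 and 16 h the 4 were Per3, Tef, Maco1 and Tspan4, between 16 and 20 h they included Cry1, Dnaja4 and Pex5l, and between 20 and 24 h they were Npas2, Leo1, Arntl and Ppard. After Npas2 the 5 largest amplitudes belonged to Serpina1e, Fgb, Haao, Fga and Apoa1, of which all but Haao encode proteins that the liver secretes. Serpina1e, a secreted protease inhibitor, held 678 CPM at 26 and 567 CPM at 58, 71.3 CPM at 54 and at most 32.4 CPM elsewhere. Fgb, a fibrinogen chain, held 601, 261 and 96.6 CPM at the same 3 times and at most 24.6 CPM elsewhere. These are the libraries with 8388, 4427 and 1567 CPM of liver markers, and edgeR called none of the 5 (adjusted p 0.319 to 0.361). DESeq2 called Haao alone of them (adjusted p 0.00736), which held 105 CPM at 26, 44.5 CPM at 30 and 37.6 CPM at 58. The part of the liver markers in these amplitudes was not tested.

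Heat shock genes had fitted peaks in subjective night with no call. Of the 20 tested, 0 were called by edgeR in any of the 4 sets. DESeq2 called 10 on the 12 libraries and 14 without 54, beside 530 and 1059 over all genes. An unadjusted p under 0.05 was found for 13 (65%) in the 12 libraries, 14 without 54, 14 without 30 and 16 without both. The shares of all genes in these sets were 13.9%, 18%, 14.7% and 17.2%. All 13 had fitted peaks between 17.6 and 20.7 h, and the fitted peaks of all 20 lay in subjective night (18 of 20 without both libraries). Over all genes tested, fitted peaks lay there for 7011 of 14911 and, without both, for 7941 of 15638. Of the 20, 12 had their lowest value at 54. The median log2 amplitude was 0.32, against 0.15 over all genes. Hspa8, the constitutive HSP70 that folds new proteins, held 1768 and 1738 CPM at 18 and 42 and 769 and 879 CPM at 34 and 58. Its log2 amplitude was 0.48 ± 0.07 (SE, 12 libraries), its fitted peak 20.1 h and its adjusted p 0.133, or 0.0537 without both. Hspd1 and Hspe1, the mitochondrial chaperonin and its partner that share the promoter shown, ran together: Hspd1 held 867 and 908 CPM at 18 and 42 against 582 and 641 CPM at 34 and 58, and Hspe1 held 198 and 210 CPM against 136 and 157 CPM. Hsph1, an HSP70 exchange factor, ranged from 65.3 CPM at 34 to 252 CPM at 42. The stress-inducible pair Hspa1a and Hspa1b had the largest amplitudes of the list, 0.92 and 0.95, with adjusted p 0.258 and 0.227, but they are near-identical copies and their counts are uncertain. Hsf1 and Hsf2, the factors that bind heat shock elements, had unadjusted p-values of 0.564 and 0.679.

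Cell division genes had fitted peaks on the opposite side of the cycle that rested on 1 library. Of 25 tested, 12 had an unadjusted p under 0.05 in the 12 libraries and 17 without 54, all with fitted peaks between 4.90 and 6.46 h, but 2 without 30 and 5 without both. These are 48%, 68%, 8% and 20% of the list, against 13.9%, 18%, 14.7% and 17.2% of all genes. None was called by edgeR in any set, and DESeq2 called 0 on the 12 libraries and 7 without 54, beside 530 and 1059 over all genes. All 25 were highest at 30. Mki67, a marker of dividing cells, held 276 CPM at 30 and 7.99 to 19.1 CPM in the other 11 libraries. Cdk1, the mitotic kinase, held 22.6 CPM at 30 and at most 5.14 CPM elsewhere. The lymphocyte markers behaved alike: 7 of 7 tested had an unadjusted p under 0.05 in the 12 libraries and 0 of 7 without 30. Their part in the rhythm of the cell division genes was not tested. Over all genes with an unadjusted p under 0.05, the share with peaks between 4 and 8 h was 45.4% in the 12 libraries, 39.7% without 54, 30.6% without 30 and 19.5% without both. Over all genes tested, it was 28.2%, 30.4%, 24% and 19% in the same sets. Without both, time of day 6 h has no library. These shares moved with the 2 libraries at that time of day, which hold the lymphocyte and adipose RNA described above.

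**Figure D4:**
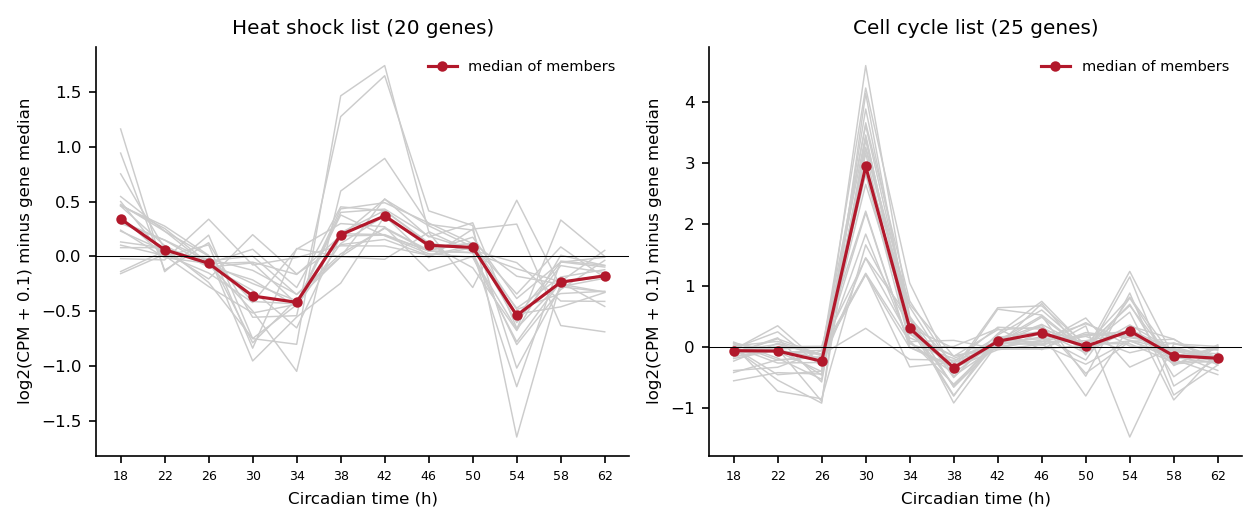
Heat shock genes (left, 20 genes) and cell cycle genes (right, 25 genes) in the 12 young adrenal libraries by circadian time in h, as log2(CPM + 0.1) minus each gene's median; grey lines are genes and red points the median of the members in each library. The heat shock median is highest at 18 (0.34) and 42 (0.37) and lowest at 54 (-0.54) and 34 (-0.42), while the cell cycle median is 2.95 at 30 and between -0.34 and 0.31 elsewhere.

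Immediate early genes, which answer within minutes to stimulation, had fitted peaks in the day. Of 22, 8 had an unadjusted p under 0.05 in the 12 libraries, 14 without 54, 8 without 30 and 9 without both. These are 36.4%, 63.6%, 36.4% and 40.9% of the list, against 13.9%, 18%, 14.7% and 17.2% of all genes. edgeR called 0 in each set. DESeq2 called 3 on the 12 libraries and 11 without 54, beside 530 and 1059 over all genes. The fitted peaks of the 8 in the 12 libraries lay between 4.73 and 8.82 h, and 13 of the 22 were highest at 30. At 54, the same time of day in the next cycle, 4 of the 22 were highest and 8 were lowest. Zfp36, which destabilises cytokine mRNAs, held 104 CPM at 30, 56.6 CPM at 54, 25.2 CPM at its lowest (42) and a median of 36.1 CPM, with an adjusted p of 0.170. Fos held 17.2 CPM at 30 and 3.74 to 10.1 CPM in the other libraries. Their part in these values of the lymphocyte markers at 30 was not tested.

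Genes that respond to glucocorticoids gave calls when the library at 54 was left out. Of 18 tested, edgeR called 0 in the 12 libraries, 3 without 54 (Tsc22d3, Per1 and Cdkn1a) and 6 without both, with Klf9, Mt1 and Mt2 added, against 0.0469%, 0.258% and 0.703% of all genes in these sets. Per1 is also counted above in the core clock list and Cdkn1a in the output list. Without 54 the fitted peaks of Tsc22d3, Per1 and Cdkn1a lay far apart, at 14.5, 8.73 and 21.9 h. DESeq2 called 5 on the 12 libraries, beside 530 over all genes. An unadjusted p under 0.05 was found for 9 (50%, against 13.9% of all genes), of which 7 had fitted peaks in subjective day, as did 62.4% of all genes at that p. Tsc22d3 (GILZ), a mediator of the anti-inflammatory response, held 172 and 152 CPM at 38 and 62 and 84.1 to 90.8 CPM at 50 and 26. Its fitted peak lay at 14.4 h, with a log2 amplitude of 0.38 and an adjusted p of 0.0992, or 0.0499 without 54. Fkbp5, a chaperone that dampens the receptor, was highest at 58, 38 and 62 (216, 204 and 199.5 CPM) but at 45.6 CPM at 54, and its unadjusted p was 0.0971 in the 12 libraries and 0.0106 without both. The metal-binding proteins Mt1 and Mt2 had earlier fitted peaks, at 10.7 and 9.14 h, with adjusted p 0.190 and 0.177. Nr3c1, the receptor itself, had an unadjusted p of 0.264.

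The fitted swings of the steroid-making enzymes in the 12 libraries moved with the library at 54, in which cortex markers were low. Star and Cyp11b1, described below, are themselves cortex markers, so these are not independent observations. The part of composition was not tested. Of 13 tested genes of steroid synthesis, 1 (Por) had an unadjusted p under 0.05 in the 12 libraries, and 4 of 14 had one without 54. These shares of 7.69% and 28.6% stand beside 13.9% and 18% of all genes. The fitted log2 amplitudes in the 12 libraries were large, with a median of 0.81, against a median of 0.25 without 54 and 0.19 without both. Star held 5420, 5137 and 4511 CPM at 38, 58 and 62 and 3115 and 3257 CPM at 46 and 18. Without 54 its peak was fitted at 11.6 h with a log2 amplitude of 0.23 and an unadjusted p of 0.0489 (adjusted 0.277). Cyp11b1, which makes corticosterone, lay between 1655 CPM at 34 and 2702 CPM at 42 outside 54, with an unadjusted p of 0.153 without 54. Akr1b7, an aldo-keto reductase of the cortex, had the smallest unadjusted p of the list after Por without 54, 0.00233, with 686 and 803 CPM at 34 and 30 and 1899 and 1759 CPM at 42 and 38, and its adjusted p was 0.146. Of 12 genes of catecholamine synthesis and storage, 0 were called by edgeR or DESeq2 in the 12 libraries and 2 (16.7%) had an unadjusted p under 0.05, near the 13.9% of all genes.

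Cholesterol synthesis genes were not called by edgeR, and 18 of 23 had fitted peaks in subjective night in the 12 libraries (15 without 54, 16 without 30 and 15 without both). Over all genes tested, night peaks were fitted for 7011 of 14911, 7329 of 15530, 7442 of 14996 and 7941 of 15638 in these sets. Of 23 genes, 7 had an unadjusted p under 0.05 in the 12 libraries, with fitted peaks between 16.8 and 22.3 h, 9 without 54, 11 without 30 and 8 without both. These are 30.4%, 39.1%, 47.8% and 34.8% of the list, against 13.9%, 18%, 14.7% and 17.2% of all genes, and 2 of the 11 without 30 had day peaks. DESeq2 called 2 on the 12 libraries and 5 without 54, beside 530 and 1059 over all genes. Insig1, which holds the sterol sensor in the endoplasmic reticulum, held 520 CPM at 46 and 457 CPM at 26 against 278 and 223 CPM at 34 and 58, and 129 CPM at 30. Its fitted peak lay at 21.3 h, with an adjusted p of 0.342 in the 12 libraries and 0.0569 without both. Dhcr7, which makes cholesterol in the last step of one branch, held 480 and 411 CPM at 38 and 42, 199 and 205 CPM at 26 and 50, and 35.8 CPM at 54. Of the 23 genes, 21 had their lowest value at 30 (10) or at 54 (11), the libraries with the lowest cortex sums, and the part of composition was not tested. Of housekeeping groups, 1 of 79 ribosomal protein genes and 1 of 90 genes of the respiratory chain had an unadjusted p under 0.05, and edgeR and DESeq2 called 0 of either. Both groups moved with single libraries: 76 of the 79 ribosomal protein genes were highest at 30, where lymphocyte markers were high, and of the 90 respiratory chain genes 81 were lowest at 30 and 71 highest at 18, where skeletal muscle markers were at their highest. The part of those markers was not tested.

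Where the adrenal rhythm differed from other organs was asked first against kidney. The test of the difference in cosine and sine called 116 of 17077 genes (0.679%), and 2356 had an unadjusted p under 0.05. Of the 116, 62 were rhythmic in kidney under the adjusted threshold and 0 in adrenal, 93 had fitted peaks over 6 h apart, and 33 had in 1 of both tissues less than 2% of the level they reached elsewhere in the series. Over all genes tested in each tissue, 13.3% were called in kidney and 0.0469% in adrenal. The test picks genes whose rhythms differ, so these counts describe the picked genes and are no separate result. The count was 267 without the adrenal library at 54, and lay between 12 (without 22 in both tissues) and 292 (without 30 in both). With circadian time as replicate block it was 1, a gene among the 116. Ppard, a nuclear receptor for fatty acids, differed most. In kidney it ran from 17.5 and 21.3 CPM at 58 and 34 to 97.0 and 93.9 CPM at 46 and 22, and in adrenal only from 40.3 CPM at 54 to 71.9 CPM at 22. The log2 amplitudes were 1.26 ± 0.09 in kidney and 0.24 ± 0.03 in adrenal (SE, 12 libraries each), with peaks at 22.8 and 20.4 h and an adjusted p of 2.17e-05. Rhobtb1 had a log2 amplitude of 0.81 with a peak at 20.5 h in kidney and 0.30 with a fitted peak at 7.85 h in adrenal (adjusted p 0.00321). Mtr, methionine synthase, peaked at 21.9 h in kidney with an amplitude of 0.46, against 0.12 in adrenal (adjusted p 0.00389). Fam13a had the larger amplitude in adrenal, 0.72 against 0.23, with fitted peaks at 12.6 and 2.23 h (adjusted p 0.00555). It lay between 71.4 CPM at 50 and 270 CPM at 62 in adrenal, where the white adipose markers were also at their lowest at 50 and, outside 54, at their highest at 62, and the part of those markers was not tested.

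For the clock itself 0 of 18 genes (Rora and Rorb left aside) differed from kidney under the adjusted threshold by edgeR in the 12 libraries per tissue, and 7 had an unadjusted p under 0.05. Without the adrenal library at 54, 2 were called: Dbp (adjusted p 0.00865) and Tef (0.0239). Fitted peaks lay within 2 h of those in kidney for 18 of 18 genes in the 12 libraries and for 16 of 18 without 54. The direction of the lag turned with that library, since 14 of 18 peaks were later in adrenal in the 12 libraries but 8 of 18 without 54. Dbp showed where the tissues parted. At 26 and 50 it already stood at 76.7 and 86.1 CPM in adrenal, while it held 18.0 and 15.4 CPM in kidney and 19.5 and 24.5 CPM in heart, and at 34 and 58 it reached 301 and 329 CPM in adrenal, 235 and 229 CPM in kidney and 334 and 292 CPM in heart.

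Against heart, 3 of 15552 genes (0.0193%) differed, and 1958 had an unadjusted p under 0.05. The 3 were Mid1ip1, Tmx1 and Rhobtb1, each rhythmic in heart and none called in adrenal, where 7.19% and 0.0469% of all genes were called. Mid1ip1, which promotes fatty acid synthesis through acetyl-CoA carboxylase, held 200.5 and 171 CPM at 18 and 22 in adrenal and 66.8 and 63.5 CPM at 30 and 54, while in heart it held 249 and 246 CPM at 34 and 58 and 111 and 117 CPM at 26 and 50. Its fitted peaks lay at 19.9 and 13.4 h with log2 amplitudes of 0.65 and 0.57 (adjusted p 0.0191, or 0.00674 without the adrenal library at 54). The adjusted p of its rhythm in adrenal alone was 0.133. Its 2 lowest adrenal libraries, at 30 and 54, are those with the lowest cortex sums, and the part of composition was not tested. Tmx1, a thioredoxin-like membrane protein, had an amplitude of 0.40 with a peak at 11.4 h in heart and 0.13 in adrenal (adjusted p 0.0285). Rhobtb1 had an amplitude of 1.05 with a peak at 13.7 h in heart and 0.28 in adrenal (adjusted p 0.0285). The count was 53 without the adrenal library at 54, and 0 without 18, 22, 26, 38, 42 or 58 in both tissues. With circadian time as replicate block it was 1, a gene not among the 3.

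Of the clock genes, 0 of 18 differed from heart in the 12 libraries and 8 had an unadjusted p under 0.05, and without 54 the difference was called for Npas2 (adjusted p 0.00674), Arntl (0.0270) and Dbp (0.0292). Arntl and Npas2 ran ahead of heart in adrenal. Arntl at 38 and 62 stood at 35.2 and 15.3 CPM in adrenal and at 2.98 and 1.69 CPM in heart, and its fitted peaks lay at 21.7 and 0.31 h, a difference (adrenal minus heart) of -2.65 h. The same difference was -2.42 h for Npas2 and -3.12 h for Clock, the latter with an adjusted p of 0.0598 without 54. Among the repressors and output factors, Cry1, Tef, Nr1d1, Bhlhe41 and Nfil3 had fitted peaks within 0.18 h of those in heart in the 12 libraries. Others lay further off, with differences of 5.32 h for Bhlhe40, 2.29 h for Hlf, 1.38 h for Per2 and -1.22 h for Dbp. Of all 18 clock genes, 13 lay within 2 h of heart. Without 54 the difference was -0.78 h for Tef and -0.87 h for Bhlhe41. Without 54, 14 of 18 clock genes had the earlier peak in adrenal, with a median difference of -0.55 h.

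**Figure D5:**
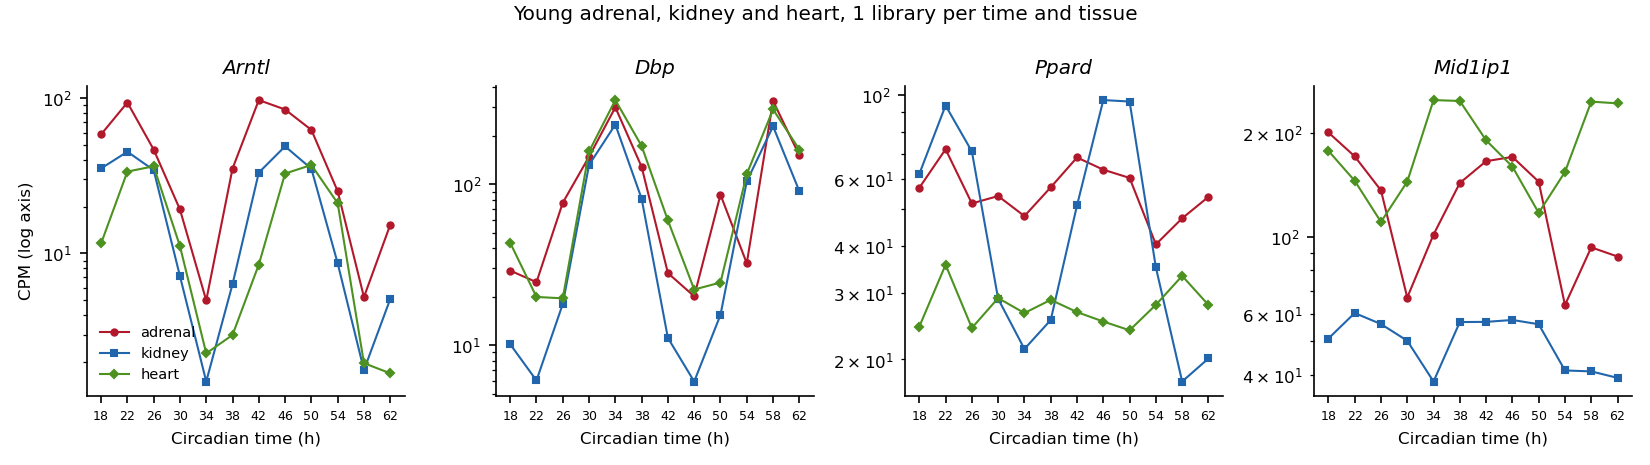
Levels (CPM, log axis) of Arntl, Dbp, Ppard and Mid1ip1 in young adrenal, kidney and heart by circadian time in h, with 1 library per point. Arntl at 38 stands at 35.2 CPM in adrenal and 2.98 CPM in heart, and Ppard spans 17.5 to 97.0 CPM in kidney against 40.3 to 71.9 CPM in adrenal. Mid1ip1 is lowest at 30 and 54 in adrenal, the libraries with the lowest cortex sums, but at 26 and 50 in heart.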

How the data were processed

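Members and gene lists were chosen with earlier results of these data known. The authors deposited whole-number counts per gene for 216 libraries, aligned with HISAT2 and counted with HTSeq on GRCm38 (mm10), per the submitters' processing notes. No version, annotation or strand setting is given in the sources used here. A deposited table of CPM by the authors equals count over library total to within 4.98e-06, and CPM here is that quantity. Of 55376 gene lines, 4 share 2 names and were kept apart.

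The 12 young adrenal libraries were fitted in edgeR 4.0.16 (R 4.3.3): filterByExpr with a minimum count of 10, TMM, robust glmQLFit and glmQLFTest of cosine and sine together (period 24 h, 2 degrees of freedom), Benjamini-Hochberg over all genes tested, threshold 0.05. To the 9 residual degrees of freedom the test adds prior ones, estimated from the spread of all genes. Amplitudes and peaks came from least squares on log2 CPM (prior count 2), with SE by the delta method. Differences between tissues were tested in 24 libraries as the interaction of tissue with cosine and sine. Genes were named as list members, as the 4 smallest p-values per 4 h peak window and the 6 largest amplitudes (mean CPM of at least 5, no predicted genes, none under 2% of another tissue's level), and as 4 per tissue comparison. Values of some members are not reported here. Other genes named were chosen after their values were seen, as is said beside them. The scripts were tested on simulated data. Alternatives included DESeq2 1.42.0, other scaling and filters, marker covariates and leaving out libraries.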

Additional observations from a re-analysis of the deposited data

Results flagged for a closer look

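These results met the rule for a tested difference between groups under the same contrast. Against young kidney, the rhythm of 116 genes differed in young adrenal. The named ones were Ppard (adjusted p 2.17e-05), Rhobtb1 (0.00321), Mtr (0.00389) and Fam13a (0.00555), by edgeR's quasi-likelihood test of the interaction. Against young heart, 3 genes differed: Mid1ip1 (adjusted p 0.0191), Tmx1 (0.0285) and Rhobtb1 (0.0285). With circadian time as replicate block, 1 gene differed from kidney, which is among the 116, and 1 from heart, which is not among the 3.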

How the results depend on the processing

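Counts of rhythmic genes (7 in the 12 libraries) lay between 0 and 40 when each library was left out in turn. They were 110 without 30 and 54, 530 by DESeq2 and 1059 by DESeq2 without 54. All 36 adrenal libraries gave 180, and 157 without young 54. The 6 times of day as levels gave 0 (2324 at an unadjusted p under 0.05) and, without 54, 3030. Without 54, the level for time of day 6 h held only the library at 30, whose lymphocyte markers were high. The count of 3030 cannot separate time of day from what is peculiar to that library, so no conclusion is drawn from it. A linear trend gave 0 (1609 unadjusted) and an adjusted p under 0.01 gave 0. As covariates, marker sums gave 59 (white adipose), 49 (medulla) and 0 (skeletal muscle, 1314 unadjusted). Without 54 they gave 21 (white adipose), 30 (medulla), 21 (skeletal muscle), 220 (lymphocyte) and 86 (liver). Differences from kidney (116) lay between 12 and 292 with each time left out of both tissues. They were 267 without the adrenal library at 54, 20 with no count filter, 71 without genes low in 1 tissue as described above and 727 by DESeq2. Differences from heart (3) lay between 0 and 26, and were 53 without adrenal 54, 5 with median-of-ratios factors, 5 with no filter, 5 without genes low in 1 tissue and 200 by DESeq2. With circadian time as replicate block the counts were 1 for kidney, which is among the 116, and 1 for heart, which is not among the 3 (1869 and 1725 at an unadjusted p under 0.05). Same-time deviations correlated between -0.019 and 0.313 (kidney, median 0.075) and between -0.034 and 0.291 (heart, median 0.046). Medians for other times were -0.0026 and 0.0022, and 3 of 12 libraries correlated best with their own time in each tissue. The labels do not say whether the tissues of a time came from the same mice, and these correlations cannot decide it. The main test did not treat times as pairs. The median clock amplitude lay between 0.92 and 1.02 with each library left out. The causes of these moves were not tested. Genes under the minimum count of 10 in the filter were not tested.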
